A study of Saccharomyces cerevisiae with 12 samples.

Results

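Budding yeast whose 14-3-3 proteins were mutated in a strain already lacking the histone deacetylases Hda1 and Rpd3 was compared with that deacetylase mutant. The comparison used 6 of the 12 arrays of the series: 3 of the combined mutant and 3 of the hdac mutant, chosen by their genotype labels, across all 5448 genes that could be named. The combined mutant had the genotype bmh1-170ts bmh2∆ hda1∆ rpd3∆ and the hdac mutant the genotype hda1∆ rpd3∆. The other arrays, 3 of a bmh mutant (bmh1-170ts bmh2∆) and 3 of the wild type W303-1A, served as a second pair in which the 14-3-3 genes differ while both deacetylases are present. The genetic background of every strain was given as W303-1A. All cultures grew exponentially at 30 °C in YP broth with 5% glucose and no other treatment, to an optical density between 0.7 and 1.3. Each strain was grown as 3 cultures of 1 isolate, so the p-values measure the spread between cultures of a strain and not between independently made strains. BMH1 carried a temperature-sensitive allele and was not deleted, and neither the amount nor the activity of its protein at 30 °C was measured.

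The 14-3-3 proteins, Bmh1 and Bmh2 in budding yeast, bind phosphorylated partners and change their activity, partners or location, and they are needed for normal glucose repression of genes for other carbon sources. Hda1 and Rpd3 are the catalytic subunits of complexes that remove acetyl groups from histones and keep many promoters repressed. When glucose is exhausted, the kinase Snf1 and the activators Adr1 and Cat8 turn on genes for the use of ethanol, acetate, fatty acids and lactate. The best-known target is ADH2, the alcohol dehydrogenase that oxidises ethanol, which is repressed in wild-type cells on glucose. The hdac mutant is thus the starting point here, and the question addressed by the comparison is what the 14-3-3 mutations add once both deacetylases are gone.

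Values are log2 signals on a scale on which 1 unit is a 2-fold difference, and differences are the combined mutant minus the hdac mutant, given with their standard error and n = 3 arrays per strain. Adjusted p-values come from limma with Benjamini-Hochberg adjustment over all 5448 genes, and a gene was called changed when that value was under 0.05. Array medians lay between 8.806 and 8.846, and the median SD over genes was 0.0673 in the combined mutant, 0.0681 in the hdac mutant, 0.0654 in the bmh mutant and 0.135 in the wild type. Wild-type array 1 stood apart from the other wild-type arrays, which enters the standard errors because the spread of a gene was pooled over the strains. The highest signal of a deleted gene, 4.13, was taken as the background. An array measures RNA from whole cultures, so more RNA per cell and more cells with the RNA cannot be told apart. No sequence is printed, because no promoter or protein sequence was used here.

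The BMH2 signal matched the genotype labels. BMH2 measured 3.77, 3.82 and 3.81 on the arrays of the combined mutant and 11.70, 11.59 and 11.65 on those of the hdac mutant, so it was at background in the first and at least 183-fold higher in the second. HDA1 was at 3.85, 3.82 and 3.68 in the combined mutant and 3.83, 3.80 and 3.83 in the hdac mutant. RPD3 was at 3.80, 3.77 and 4.10 in the combined mutant and 3.91, 3.91 and 3.76 in the hdac mutant. Both deacetylase genes were thus low in both strains. The background was set from these same signals and those of BMH2 where it is deleted. That they do not exceed it is therefore by definition and is no check of the labels. BMH1 RNA measured 12.73, 12.74 and 12.65 in the combined and 12.77, 12.82 and 12.78 in the hdac mutant and was not called changed (−0.08 ± 0.056, adjusted p = 0.28). One label field, the source name, gives the strain names of these 2 groups the other way round. The genotype labels were followed, and the BMH2 signal goes with them.

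The strains differed in more than the 14-3-3 genes, and these differences stand beside every result below. The first is mating type. MF(ALPHA)1, which encodes the alpha-factor pheromone, measured 3.90, 3.70 and 3.82 in the combined mutant and 11.63, 11.67 and 11.61 in the hdac mutant, at least 182-fold lower in the combined mutant. STE2, the receptor for alpha-factor found on a cells, measured 10.88, 10.88 and 10.89 in the combined mutant and 5.85, 6.13 and 6.01 in the hdac mutant. The groups did not overlap for either gene. All 7 a-cell genes measured were higher in the combined mutant, by 1.22 (ASG7) to 5.49 (MFA2) on the log2 scale, and all 5 alpha-cell genes were lower, by 0.37 (SAG1) to 7.83. These calls are to be read against the 17.5% of all genes called higher and the 18.9% called lower. The bmh mutant and the wild type had the a-cell pattern too: MF(ALPHA)1 averaged 4.09 in the bmh mutant and 4.02 in the wild type, and STE2 12.62 in the bmh mutant and 12.73 in the wild type. The hdac mutant was therefore the only one of the 4 strains with the alpha pattern. Of the 7 a-cell genes, 5 averaged at least 1 log2 unit less in the combined mutant than in the wild type. BAR1, the secreted protease that degrades alpha-factor, had a mean signal of 7.51 in the combined mutant, of 4.88 in the hdac mutant and of 10.89 in the wild type.

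The second difference covers a whole chromosome. Of the 148 genes measured on chromosome III, 141 were lower in the combined mutant, 133 (89.9%) were called lower and 3 (2.03%) were called higher, namely LEU2, ADY2 and the mating-type gene HMRA1. The median difference on this chromosome was −0.863, a signal 1.82-fold higher in the hdac mutant, while the medians of the other 15 chromosomes lay between −0.0993 and 0.0182. Set against the wild-type mean, the chromosome III median was −0.120 to −0.117 on the combined arrays and 0.672 to 0.695 on the hdac arrays. The other chromosomes lay between −0.246 and −0.0136 on the combined arrays and between −0.180 and −0.0200 on the hdac arrays. The hdac mutant was thus the strain that stood apart, as the distribution of differences by chromosome shows. DNA copy number was not measured. Genes of chromosome III are given below as such, and the counts over all genes are also given without them.

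**Figure D1:**
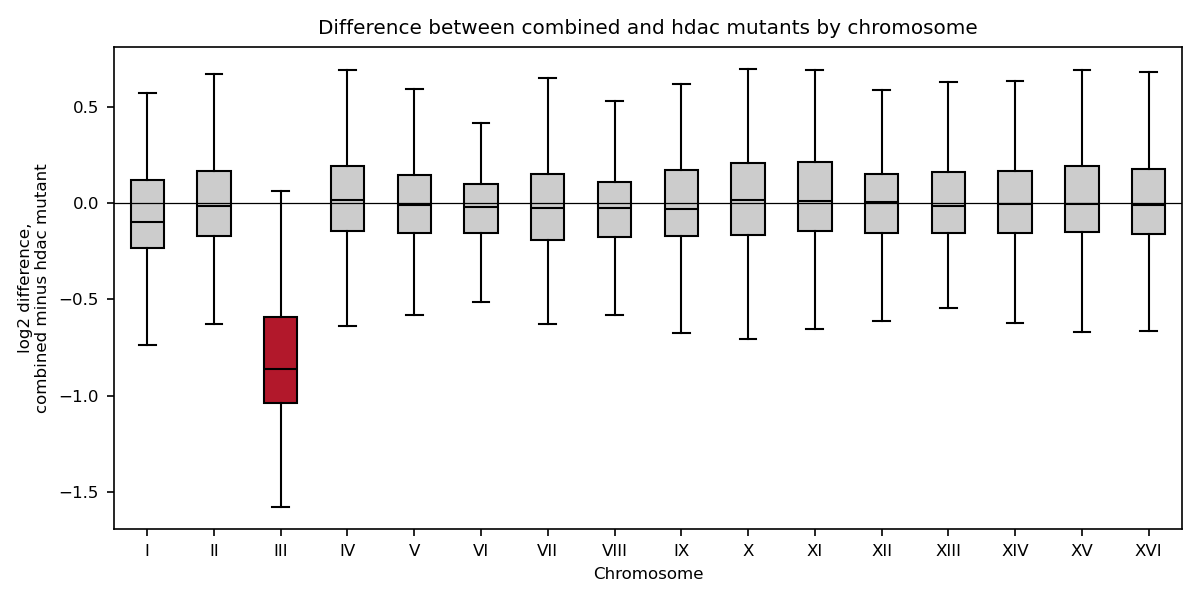
Log2 difference between the combined and the hdac mutant (vertical axis) for the genes of each chromosome (horizontal axis). Boxes span the quartiles with the median as a line, whiskers reach the last gene within 1.5 box lengths, and genes beyond them are not drawn. The box of chromosome III (red) lies below the others, with a median of −0.863, and the other medians stay within −0.0993 and 0.0182.

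The third difference concerns genes used as selection markers in laboratory strains. HIS3, an enzyme of histidine synthesis, measured 12.03, 12.10 and 12.13 in the combined mutant and 7.87, 7.82 and 7.88 in the hdac mutant. LEU2, an enzyme of leucine synthesis, measured 11.88, 12.02 and 12.05 in the combined mutant and 8.51, 8.20 and 8.40 in the hdac mutant. Neither gene overlapped between the strains. HIS3 was higher by 4.23 ± 0.063, adjusted p = 1.4e-13, and LEU2, although on chromosome III, by 3.61 ± 0.11, adjusted p = 2.1e-10. HIS3 was also higher in the bmh mutant than in the wild type (4.58 ± 0.063). URA3 (1.40 ± 0.097) and ADE2 (0.81 ± 0.11) were also called higher, while MET17 (0.16), LYS2 (0.07) and CAN1 (0.02) were not called. ADE2 was also higher in the bmh mutant than in the wild type (1.52), and URA3 was also called between those strains. Whether URA3 and ADE2 differed through strain construction or together with other genes of their pathways was not tested. Of the 12 genes next to the 4 mutated genes, HIS3 and LEU2, 3 were called and are named for their position. AAD14 beside RPD3 was higher (0.39), and NFS1 (−0.89) and YCL021W-A (−0.58) beside LEU2 were lower, as most genes of chromosome III were. The parts of mating type, chromosome III and marker genes in the results below were not tested.

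Across all genes, 1982 of 5448 (36.4%) were called changed between the combined and the hdac mutant, 954 (17.5%) higher and 1028 (18.9%) lower. Most were small: 109 genes (2%) were at least 2-fold higher and 76 (1.4%) at least 2-fold lower. Of the 76, 41 lay on chromosome III. Without that chromosome, 34.8% of genes were called: 951 of 5300 genes (17.9%) were higher and 895 (16.9%) lower, with 106 (2%) and 35 (0.66%) past 2-fold. Large changes outside chromosome III were therefore mostly rises. The median over all genes was −0.02.

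Among the largest rises outside chromosome III and the mating-type lists, ADH2 came first, followed by the marker HIS3, the stationary-phase gene SPG4 and DAK2. SPG4 measured 9.56, 9.42 and 9.50 in the combined mutant and 5.47, 5.35 and 5.12 in the hdac mutant (4.18 ± 0.17, adjusted p = 2.6e-09). DAK2, a dihydroxyacetone kinase that feeds this 3-carbon sugar into glycolysis, measured 11.92, 11.90 and 11.95 in the combined mutant and 7.89, 7.84 and 7.75 in the hdac mutant (4.10 ± 0.074, adjusted p = 1.0e-12). Neither gene had overlapping values. BAG7, which encodes a GTPase-activating protein for Rho1, rose by 3.31 ± 0.12. NCE103, the carbonic anhydrase, rose by 2.69 ± 0.15, to 13.84, 13.76 and 13.75 in the combined mutant against 11.13, 11.13 and 11.02 in the hdac mutant. TMA10 rose by 2.59 ± 0.15, OSW2, a gene of spore wall assembly, by 2.50 ± 0.14, and DIP5, the permease for glutamate and aspartate, by 2.49 ± 0.38. FDH1, RTN2, CTA1, HSP12 and MSC1, also among the largest, are described with their groups.

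The Adr1-dependent genes rose almost throughout. Of 26 measured, 22 (84.6%) rose, 0 fell, and the median difference was 1.06. Over all genes 17.5% rose, 18.9% fell and the median was −0.02. ADH2 measured 13.93, 13.92 and 13.96 in the combined mutant and 9.25, 9.24 and 9.14 in the hdac mutant, a rise of 4.72 ± 0.17, adjusted p = 1.2e-09. Its signal in the combined mutant was 26.4-fold that in the hdac mutant and lay near the top of the array's range, whose highest value was 14.9. FDH1, the formate dehydrogenase, measured 9.06, 8.91 and 9.09 in the combined mutant and 5.53, 5.49 and 5.09 in the hdac mutant (3.65 ± 0.12, adjusted p = 6.4e-10). The 3 and 3 values of both genes were far apart. CTA1, the peroxisomal catalase, measured 8.48, 8.40 and 8.57 in the combined mutant and 6.39, 6.15 and 5.92 in the hdac mutant (2.33 ± 0.22, adjusted p = 6.3e-06).

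The enzymes that carry ethanol on to acetyl-CoA rose as well. ALD4, the mitochondrial aldehyde dehydrogenase, measured 13.21, 13.13 and 13.10 in the combined mutant and 11.38, 11.31 and 11.34 in the hdac mutant (1.80 ± 0.18, adjusted p = 9.2e-06). ACS1, an acetyl-CoA synthetase, measured 12.33, 12.26 and 12.30 in the combined mutant and 10.28, 10.26 and 10.20 in the hdac mutant (2.05 ± 0.066, adjusted p = 3.9e-10). ADY2, an acetate transporter, rose by 1.13 ± 0.11 although it lies on chromosome III, and ATO3, a member of the same transporter family, rose by 1.25 ± 0.098. RGI2, a gene induced in respiring cells, rose by 1.80 ± 0.07 from a signal close to background in the hdac mutant, 4.32, 4.33 and 4.42. GUT2, the mitochondrial glycerol-3-phosphate dehydrogenase, rose by 0.69 ± 0.1. GUT1, glycerol kinase, at 0.13 ± 0.065, ADH5 at 0.11 ± 0.11, PIP2, an activator of peroxisomal genes, at 0.11 ± 0.09 and YAT1, a carnitine acetyltransferase, at −0.12 ± 0.17 were not called. ADR1 RNA itself was at 8.63, 8.51 and 8.69 in the combined mutant and 8.25, 8.13 and 8.39 in the hdac mutant. These values do not overlap, but the difference did not pass (0.35 ± 0.16, adjusted p = 0.11).

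Fatty acid oxidation showed a similar share. Of 18 beta-oxidation genes, some of which are also in the Adr1 list, 15 (83.3%) rose and 0 fell, with a median of 0.73. Of all genes 17.5% rose and 18.9% fell. The enzymes of the cycle were among them: POX1, the acyl-CoA oxidase, rose by 1.01 ± 0.11, FOX2, which catalyses the middle steps, by 0.48 ± 0.085, and POT1, the thiolase that ends the cycle, by 1.16 ± 0.087. POX1 was at 6.57, 6.78 and 6.95 in the combined mutant and 5.89, 5.60 and 5.79 in the hdac mutant. POT1 was at 9.72, 9.88 and 9.78 in the combined mutant and 8.59, 8.76 and 8.56 in the hdac mutant, and neither gene overlapped. The accessory enzymes for unsaturated fatty acids, ECI1 (1.20 ± 0.083) and SPS19 (1.11 ± 0.09), rose too. So did PXA1 (1.15 ± 0.085), one chain of the transporter that brings long fatty acids into peroxisomes, PEX11 (0.82 ± 0.075), which makes peroxisomes divide, and CAT2 (0.95 ± 0.086), a carnitine acetyltransferase.

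**Figure D2:**
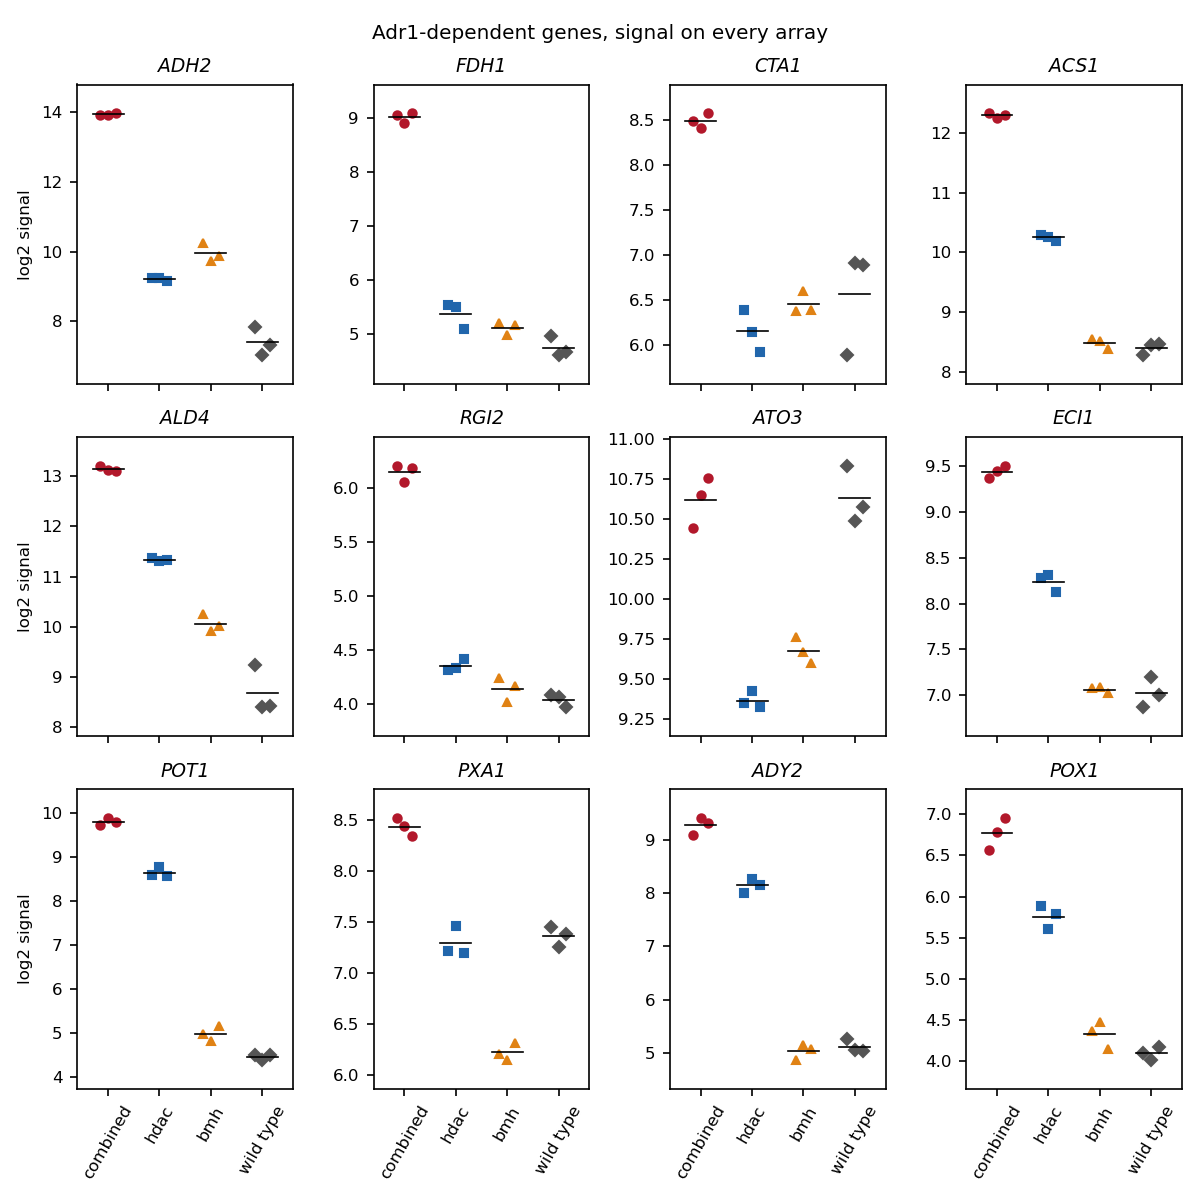
Log2 signal (vertical axes, each with its own range) of 12 Adr1-dependent genes on every array of the combined, hdac, bmh and wild-type strains. Points are single arrays, n = 3 per strain, and lines are means. In each panel the 3 combined arrays lie above the 3 hdac arrays, and for ATO3 the wild type is as high as the combined mutant (10.63 and 10.62).

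The plot of Adr1-dependent genes by strain shows that their starting level differed. POT1 averaged 9.79 in the combined mutant and 8.63 in the hdac mutant, but only 4.99 in the bmh mutant and 4.46 in the wild type. FDH1, at 5.37 in the hdac mutant and 4.73 in the wild type, was low in every strain except the combined mutant. Many such genes were dim: 13 of the 26 Adr1-dependent genes had a mean over all arrays in the lowest 20% of genes, and of the 13 brighter ones 10 rose. Of the 11 brighter beta-oxidation genes, 8 rose.

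Genes of gluconeogenesis and other Cat8 targets rose less. Of 21, 13 (61.9%) rose and 1 (4.76%) fell (CIT2, on chromosome III), with a median of 0.42. The shares of all genes were 17.5% and 18.9%. PCK1 (phosphoenolpyruvate carboxykinase), which commits carbon to glucose synthesis, measured 9.31, 9.35 and 9.34 in the combined mutant and 8.37, 8.23 and 8.17 in the hdac mutant (1.08 ± 0.068, adjusted p = 1.8e-07). FBP1, fructose-1,6-bisphosphatase, measured 8.12, 8.09 and 8.24 in the combined mutant and 7.11, 7.14 and 7.23 in the hdac mutant (0.99 ± 0.092, adjusted p = 5.1e-06). PYC1, a pyruvate carboxylase, rose by 1.69 ± 0.15 and its isoenzyme PYC2 was at −0.08 ± 0.076, not called. CYB2, which oxidises lactate, rose by 1.59 ± 0.14, the lactate permease gene JEN1 by 0.52 ± 0.12 and the succinate-fumarate carrier gene SFC1 by 0.60 ± 0.072. In the glyoxylate cycle, MDH2 (malate dehydrogenase) rose by 0.69 ± 0.11 and MLS1 (malate synthase) by 0.38 ± 0.11, while ICL1 (isocitrate lyase) was at 0.23 ± 0.11 and was not called. The call of MLS1 ended without 1 of the arrays combined 1, hdac 1 or hdac 3. The activator gene SIP4 rose by 0.45 ± 0.11 and CAT8 was at 0.17 ± 0.091, not called. CIT2, a peroxisomal citrate synthase, fell by 1.27, which is −0.40 relative to the median of its chromosome. In the TCA cycle, 7 of 16 genes (43.8%) rose and 0 fell, with a median of 0.29. LSC2 (0.73 ± 0.1), a subunit of succinyl-CoA ligase, and SDH4 (0.49 ± 0.091), a subunit of succinate dehydrogenase, led the rises. The number rising was 12 without wild-type array 1 and 4 without combined array 2, combined array 3 or hdac array 3, and 1 fell without wild-type array 1. In the respiratory chain, 2 of 38 (5.26%) rose and 4 (10.5%) fell (median −0.05). The number rising was 6 without wild-type array 1 and 4 without wild-type array 3.

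Genes for other sugars rose in part. Of 18, 9 (50%) rose and 0 fell, with a median of 0.30, against 17.5% and 18.9% of all genes. MAL32, a maltase read by a probe set shared with a near-identical copy, rose by 1.54 ± 0.07, and IMA1, an isomaltase, by 0.91 ± 0.12. SUC2, invertase, measured 10.19, 10.14 and 10.34 in the combined mutant and 9.90, 9.76 and 9.81 in the hdac mutant (0.40 ± 0.077, adjusted p = 0.0016). The galactose genes changed little: GAL7 (0.32 ± 0.1) and GAL10 (0.37 ± 0.13) were called, but both calls ended under quantile normalization. The call of GAL7 also ended without combined array 2 or 3 or any 1 of the hdac arrays, and that of GAL10 without combined array 1 or 3, hdac array 1 or 3, or bmh array 3. The other galactose genes, GAL1 (−0.15 ± 0.1), GAL2 (0.35 ± 0.14), GAL3 (0.13 ± 0.21) and GAL80 (−0.10 ± 0.062), were not called.

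Among 16 genes of hexose transport and sensing, 5 (31.2%) rose and 1 (6.25%) fell, with a median of 0.08. The shares of all genes were 17.5% and 18.9%. HXT7, a high-affinity transporter whose probe set also reads a near-identical gene, measured 11.27, 11.13 and 11.27 in the combined mutant and 10.14, 10.05 and 10.27 in the hdac mutant (1.07 ± 0.1, adjusted p = 7.4e-06). HXT2 (high affinity) measured 13.25, 13.26 and 13.31 in the combined mutant and 12.46, 12.33 and 12.36 in the hdac mutant (0.89 ± 0.13, adjusted p = 0.0002). HXT1 and HXT3, the low-affinity transporters of high glucose, were at −0.07 ± 0.078 and 0.04 ± 0.081 and were not called. HXT5 (0.01 ± 0.1) and HXT4 (0.09 ± 0.13) were not called either. HXT9 rose by 1.04 ± 0.11, and a second probe set of HXT9 gave 0.46. HXT15 rose by 1.04 ± 0.079, on a probe set shared with related genes, and STL1, a glycerol transporter, by 0.53 ± 0.098. The glucose sensor gene RGT2 fell by 0.28, and 2 genes of this list fell without wild-type array 1. Of the sugar kinases, HXK1 rose to 10.64, 10.60 and 10.60 in the combined mutant, against 9.71, 9.68 and 9.67 in the hdac mutant (0.93 ± 0.25, adjusted p = 0.014). EMI2, a glucokinase paralogue, rose by 0.47 ± 0.13. These were the 2 of 4 sugar kinase genes that rose, 0 fell, and 1 fell without wild-type array 1.

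Of 26 genes of the Snf1 kinase, its regulators and the glucose repressors, 5 rose and 5 fell (median 0.05), close to the shares over all genes. MIG1, the main glucose repressor, measured 8.74, 8.80 and 8.74 in the combined mutant and 7.74, 7.67 and 7.50 in the hdac mutant, a rise of 1.12 ± 0.064, adjusted p = 8.4e-08. The bmh mutant had 9.59, 9.65 and 9.67 and the wild type 9.74, 9.77 and 9.80, so MIG1 RNA was lowest in the hdac mutant. MIG3, a related repressor gene, rose by 0.67 ± 0.097 and MIG2 by 0.31 ± 0.098. The call of MIG2 ended without hdac array 2 or without any 1 of the combined arrays. TUP1, the corepressor that works with Mig1, fell by 0.99; it lies on chromosome III and was at −0.13 relative to the median there. Its partner CYC8 was at −0.05 ± 0.09 and was not called. SNF1 was at 0.09 ± 0.09 and REG1, the phosphatase subunit that keeps Snf1 off in glucose, at 0.22 ± 0.084, and neither was called. GAL83, a beta subunit of the Snf1 kinase, fell by 0.35, and SNF4, its gamma subunit, by 0.19. The call of SNF4 ended without combined array 1 or hdac array 2. The numbers rising and falling were 3 and 3 without hdac array 2, and 3 rose without combined array 1 or 2, while 8 rose without wild-type array 1.

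Many stress and stationary-phase genes rose. Of 38 genes driven by the stress activators Msn2 and Msn4, 25 (65.8%) rose and 1 (2.63%) fell, with a median of 0.62. HSP12, a small membrane-protecting stress protein, measured 13.44, 13.41 and 13.41 in the combined mutant and 11.16, 11.10 and 11.07 in the hdac mutant (2.31 ± 0.5, adjusted p = 0.0034). Its standard error is large beside the SD of 0.019 in the combined mutant because the fit shares 1 estimate of the spread, and the wild-type arrays measured 10.09, 7.56 and 7.58. RTN2 (a reticulon protein of the endoplasmic reticulum) rose by 2.38 ± 0.074, MSC1 by 2.26 ± 0.2 and NQM1 (a transaldolase) by 2.15 ± 0.1. HSP104, the chaperone that dissolves protein aggregates, rose by 0.80 ± 0.11 and HSP42, a small heat shock protein, by 0.73 ± 0.1. HSP26 was the member that fell (−0.68 ± 0.23), and its call ended when any 1 of the combined or hdac arrays was left out. Without wild-type array 1, 2 members fell. Of 23 stationary-phase genes, 16 (69.6%) rose and 3 (13%) fell (median 0.53), with SPG4, HSP12 and YRO2 (2.02 ± 0.24), a plasma membrane protein, at the top. RIM15, the kinase that promotes entry into quiescence, rose by 0.58 ± 0.091. Of 24 Hsf1-driven chaperone genes, 4 rose and 4 fell, with a median of −0.12, and the share of 16.7% each way was near that of all genes (17.5% higher, 18.9% lower). The numbers falling were 8 without wild-type array 1 and 2 without combined array 2 or 3, and 2 rose without combined array 1, combined array 2 or hdac array 3.

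Reserve carbohydrate genes followed in part. Of 18 genes of glycogen and trehalose, 8 (44.4%) rose and 0 fell (median 0.31), against 17.5% and 18.9% of all genes. GPH1, glycogen phosphorylase, measured 10.87, 10.82 and 10.81 in the combined mutant and 9.30, 9.18 and 9.35 in the hdac mutant (1.56 ± 0.13, adjusted p = 1.6e-06). GLG1, the glycogenin that primes glycogen synthesis, rose by 1.34 ± 0.086 and PIG1, a phosphatase targeting subunit, by 0.88 ± 0.14. The branching enzyme gene GLC3 rose by 0.68 ± 0.23, a call that ended when any 1 of the combined or hdac arrays was left out.

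Cell wall genes rose in number but by small amounts. Of 39, 24 (61.5%) rose and 0 fell, with a median of 0.24, against 17.5% and 18.9% of all genes. PIR3, a structural wall protein, measured 12.25, 12.30 and 12.35 in the combined mutant and 10.42, 10.27 and 10.32 in the hdac mutant (1.97 ± 0.19, adjusted p = 7.4e-06). SPI1, a wall protein of weak-acid stress, rose by 1.56 ± 0.072, the secreted glycoprotein gene YGP1 by 1.35 ± 0.18 and PRM5, a target of the cell integrity pathway, by 1.29 ± 0.077. Of 7 flocculin and adhesion genes, 6 (85.7%) rose and 0 fell (median 0.51). FLO11, needed for filamentous and invasive growth, measured 9.18, 9.21 and 9.41 in the combined mutant and 8.61, 8.54 and 8.53 in the hdac mutant (0.71 ± 0.12, adjusted p = 0.00079), and its activator gene FLO8 rose by 0.51 ± 0.063. FLO1 rose by 0.89 ± 0.19. Without wild-type array 1, 1 gene of this list fell.

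**Figure D3:**
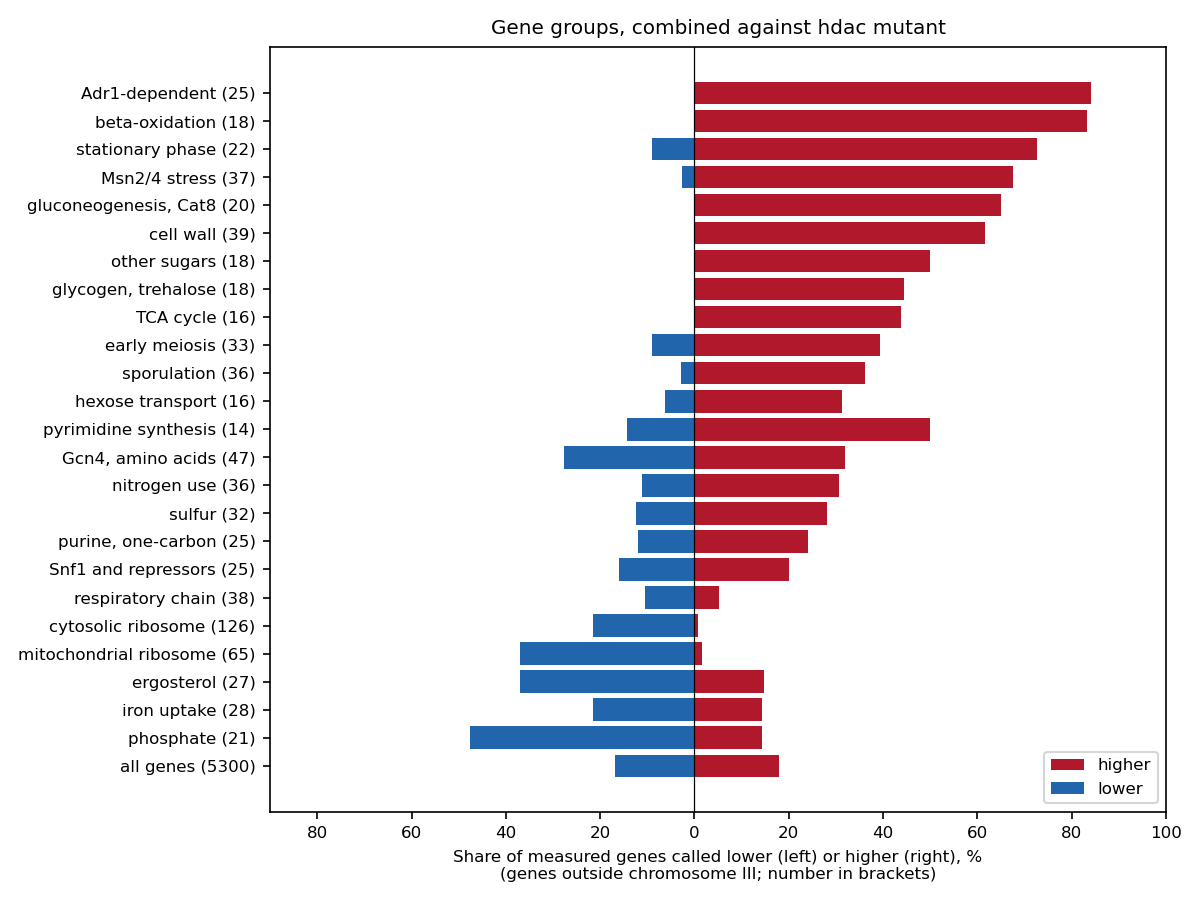
Share of measured genes (horizontal axis, percent) called higher (red, right) or lower (blue, left) in the combined than in the hdac mutant, for gene groups outside chromosome III with the number of genes in brackets. The bottom row is all 5300 genes, 17.9% higher and 16.9% lower. Among the 24 groups drawn, the bars of the Adr1 and beta-oxidation groups reach furthest right and that of phosphate genes furthest left. Groups not drawn include the flocculins, 6 of 6 higher, and the subtelomeric families, 6 of 12 lower, outside chromosome III.

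Meiotic genes, many of them known targets of Rpd3 repression, rose in part, although both strains lack Rpd3. Of 33 early meiotic genes, 13 (39.4%) rose and 3 (9.09%) fell (median 0.20), against 17.5% and 18.9% of all genes. IME1, the activator that starts meiosis, measured 7.54, 7.44 and 7.55 in the combined mutant and 6.34, 6.34 and 6.47 in the hdac mutant (1.13 ± 0.13, adjusted p = 3.2e-05). IME2, the kinase it induces, measured 9.59, 9.45 and 9.58 in the combined mutant and 8.56, 8.42 and 8.68 in the hdac mutant (0.98 ± 0.092, adjusted p = 5.5e-06). RIM4, an RNA-binding protein of meiosis, rose by 0.99 ± 0.12 and DMC1, the meiotic recombinase, by 0.87 ± 0.087. Of 37 sporulation genes, 13 (35.1%) rose and 1 (2.7%) fell (median 0.14). After OSW2 and SPS19 the largest rises were SPO21 (0.89 ± 0.14), of the spindle pole body, and SPR1 (0.84 ± 0.082), a glucanase. The number of sporulation genes falling was 2 without combined array 3, wild-type array 1 or wild-type array 2, and 3 without bmh array 2. Most of these genes were dim: 29 of the 33 early meiotic and 32 of the 37 sporulation genes had a mean in the lowest 20% of all genes.

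Amino acid and nucleotide pathways were mixed. Of 50 genes driven by Gcn4, the activator of amino acid synthesis, 15 (30%) rose and 16 (32%) fell (median −0.03). The shares of all genes were 17.5% and 18.9%. CPA1, for arginine and carbamoyl phosphate, rose to 13.09, 13.11 and 13.18 in the combined mutant, against 11.53, 11.53 and 11.65 in the hdac mutant (1.56 ± 0.081, adjusted p = 3.8e-08). The largest falls in this list, HIS4 (−0.97), THR4 (−0.85) and ILV6 (−0.75), were of genes on chromosome III. Of 14 pyrimidine genes, 7 (50%) rose and 2 (14.3%) fell (median 0.13). URA3 is described above with the marker genes. The other rises were led by URA1 (1.69 ± 0.066), dihydroorotate dehydrogenase, URA4 (1.17 ± 0.063), dihydroorotase, and URA10 (1.11 ± 0.069), an orotate phosphoribosyltransferase. The number of pyrimidine genes falling was 4 without wild-type array 1. Of 37 nitrogen genes, 11 (29.7%) rose and 5 (13.5%) fell. Among the rises were DIP5, the proline permease gene PUT4 (1.27 ± 0.13) and UGA2 (1.20 ± 0.058), which degrades gamma-aminobutyrate.

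**Figure D4:**
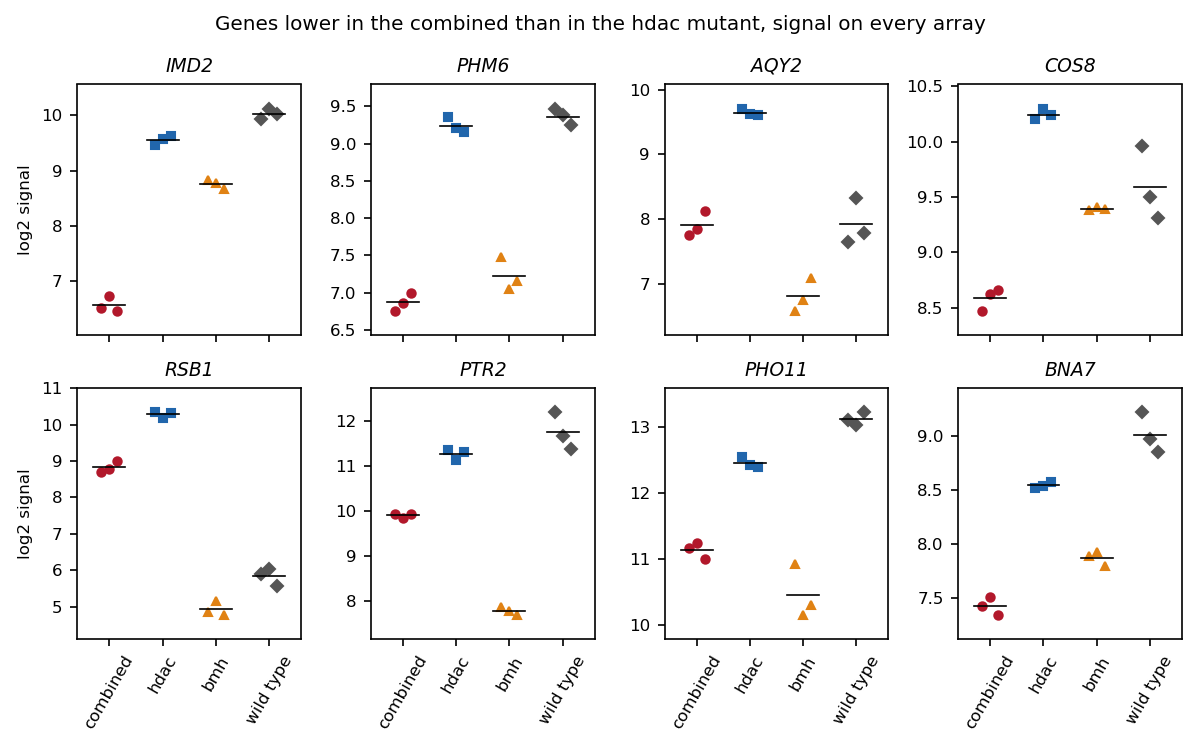
Log2 signal (vertical axes, each with its own range) of 8 genes outside chromosome III that were lower in the combined than in the hdac mutant, on every array of the 4 strains. Points are single arrays, n = 3 per strain, and lines are means. In each panel the 3 combined arrays lie below the 3 hdac arrays.

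The largest fall after the deleted BMH2, outside chromosome III and the mating-type lists, was that of IMD2. This gene of IMP dehydrogenase, the enzyme that starts guanine nucleotide synthesis, measured 6.51, 6.74 and 6.46 in the combined mutant and 9.46, 9.57 and 9.63 in the hdac mutant (−2.98 ± 0.084, adjusted p = 1.0e-10). Its probe set is shared with a near-identical copy. Of 25 purine and one-carbon genes, 6 rose and 3 fell. Among the rises were ADE17 (0.69 ± 0.1) of purine synthesis, MTD1 (0.53 ± 0.063), a folate enzyme, and ADE2, described above with the marker genes. Nothing in these counts sets the list apart from all genes, of which 17.5% rose and 18.9% fell.

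Phosphate genes fell more often than they rose. Of 22, 3 (13.6%) rose and 11 (50%) fell, with a median of −0.25, against 17.5% and 18.9% of all genes. PHM6, a phosphate-regulated gene, measured 6.76, 6.86 and 7.0 in the combined mutant and 9.36, 9.21 and 9.15 in the hdac mutant (−2.37 ± 0.11, adjusted p = 1.2e-08). PHO11, a secreted acid phosphatase read by a probe set shared with a near copy, measured 11.16, 11.24 and 11.00 in the combined mutant and 12.54, 12.42 and 12.39 in the hdac mutant (−1.32 ± 0.15, adjusted p = 3.7e-05). SPL2, an inhibitor of low-affinity phosphate uptake, fell by 1.12. GIT1, the permease for glycerophosphoinositol, fell by 2.82 and lies on chromosome III, with −1.96 relative to the median there. The number of phosphate genes falling was 7 without combined array 2 or 3 or hdac array 1 or 3, and the number rising was 1 without combined array 3 or hdac array 2.

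Other falls were of single genes from several families. CHA1, the deaminase that degrades serine and threonine, measured 6.62, 6.57 and 6.60 in the combined mutant and 9.62, 9.65 and 9.75 in the hdac mutant (−3.08 ± 0.12, adjusted p = 2.4e-09). It lies on chromosome III and was at −2.21 relative to the median there. AQY2, a water channel, measured 7.76, 7.85 and 8.12 in the combined mutant and 9.70, 9.62 and 9.60 in the hdac mutant (−1.73 ± 0.17, adjusted p = 7.7e-06), and YLL053C, the open reading frame beside it by systematic name, fell by 1.45. PTR2, the transporter of small peptides, measured 9.94, 9.85 and 9.93 in the combined mutant and 11.37, 11.14 and 11.30 in the hdac mutant (−1.36 ± 0.16, adjusted p = 3.0e-05). RSB1, a membrane protein that exports sphingoid bases, fell by 1.46. Of 13 genes of subtelomeric families, 4 (30.8%) rose and 7 (53.8%) fell, against 17.5% and 18.9% of all genes. The falls were led by COS8 (−1.66 ± 0.13), COS2 (−1.42 ± 0.13, a shared probe set) and COS10 (−1.05 ± 0.21). The rises were led by AAD10 (1.81 ± 0.073), an aryl-alcohol dehydrogenase gene. Without the probe sets that can read near-identical genes, 3 genes of these families fell. In the synthesis of NAD from tryptophan, BNA7 (−1.11 ± 0.086) and BNA4 (−1.08 ± 0.093) fell while BNA2 (1.23 ± 0.081), the first enzyme, rose. Of 28 iron genes, 4 rose and 6 fell (median −0.17), 14.3% and 21.4%, near the shares of all genes (17.5% and 18.9%). The rises were led by ISU1 (1.26 ± 0.19), the scaffold of iron-sulfur clusters, and HMX1 (1.24 ± 0.1), haem oxygenase. The number of iron genes falling was 13 without wild-type array 1. Of 27 ergosterol genes, 4 (14.8%) rose and 10 (37%) fell (median −0.12). The falls were led by HES1 (−0.84 ± 0.17), an oxysterol-binding protein, and ERG27 (−0.71 ± 0.066), a sterol reductase.

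Ribosomal protein genes seldom rose. Of 127 cytosolic ribosomal protein genes, 1 rose and 28 fell, with a median of −0.08. The share that fell, 22% in the main fit, was close to the 18.9% of all genes and varied with the settings. Only 0.787% rose against 17.5%, and the largest falls were small. RPS27A fell by 0.29 and RPL36A by 0.27, and RPS14B was the member that rose (0.78 ± 0.088). The number falling was 13 without combined array 2, 11 without combined array 3, 14 without hdac array 2 and 12 without hdac array 3. It was 15 with the replicate number as a block and 10 at an adjusted p under 0.01. With limma's trend and robust settings it was 59, where 1072 of all genes fell. With arrays weighted by their spread it was 65, where 1684 of all genes fell. Of 68 mitochondrial ribosomal protein genes, 1 (1.47%) rose and 27 (39.7%) fell, with a median of −0.15. The largest falls, IMG1 (−1.14 ± 0.062), IMG2 (−1.06 ± 0.1) and MRPL32 (−0.86 ± 0.054), were of genes on chromosome III. Without that chromosome, 24 of 65 fell and the median was −0.14. The number rising was 2 without combined array 1 and 3 without wild-type array 1.

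The same 14-3-3 mutations were then set beside their effect in cells that keep the deacetylases, the bmh mutant minus the wild type. The comparisons share no arrays, but they share 1 estimate of the spread per gene, so their calls are not independent. Of the 1982 genes called in the combined against the hdac mutant, 895 (45.2%) were also called between the bmh mutant and the wild type, where 1742 genes (32%) were called (14.8% higher, 17.2% lower), and the 895 are 51.4% of those. The direction was the same for 747 of the 895 (83.5%) and opposite for 148. Without wild-type array 1, 1425 genes were called in both comparisons, 314 of them in opposite directions. Without chromosome III and the mating-type lists, 846 genes were called in both, 721 of them (85.2%) in the same direction. Across these 5260 genes the log2 differences of the 2 comparisons had a Pearson r of 0.512 and a Spearman rho of 0.386, a description across genes, which are not independent replicates and were normalized together. Without BMH2 and HIS3, which differ between the strains by construction or as markers, r was 0.463 and rho 0.386 over 5258 genes. Among genes at least 2-fold higher in the combined than in the hdac mutant, outside chromosome III and the mating-type lists, 58 of 97 were also called higher in the bmh mutant, 7 were called lower there and 32 were not called. Of the 31 genes at least 2-fold lower, 22 were also called lower in the bmh mutant, 1 was called higher and 8 were not called.

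**Figure D5:**
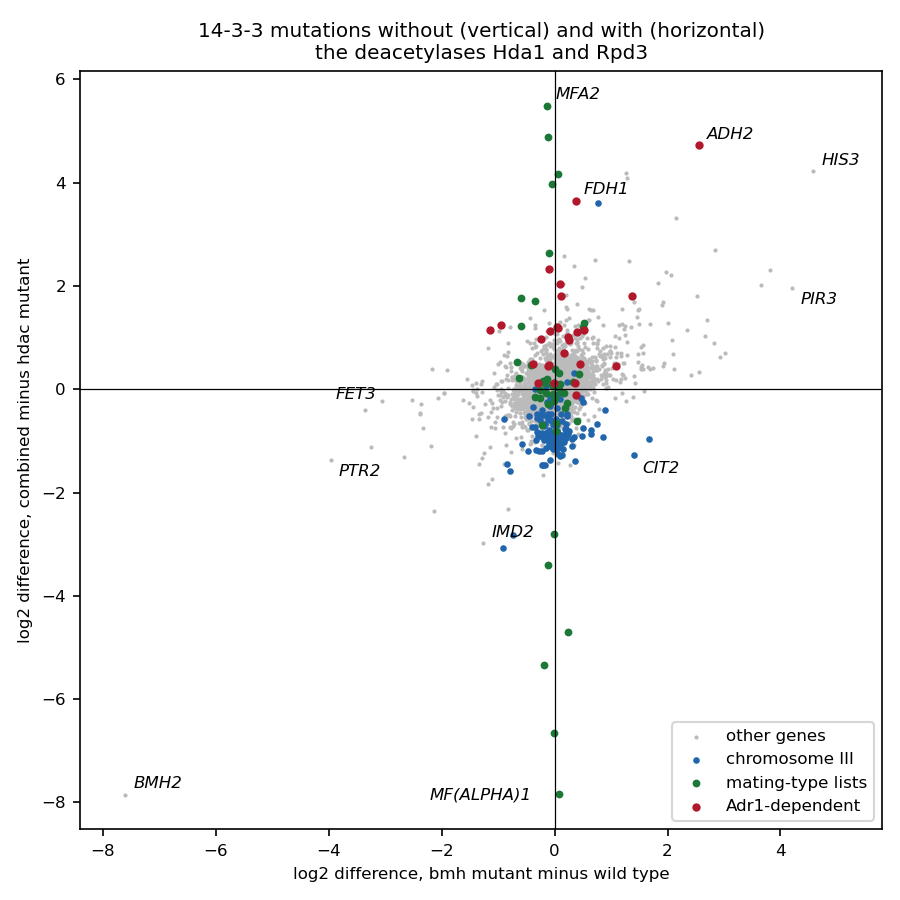
Log2 difference of the combined minus the hdac mutant (vertical axis) against that of the bmh mutant minus the wild type (horizontal axis), 1 point per gene. Chromosome III genes (blue) are spread downward and mating-type genes (green) vertically at a horizontal value near 0. Adr1-dependent genes (red) lie above 0 on the vertical axis, except YAT1, and on both sides of 0 on the horizontal axis.

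Whether the change differed between the comparisons was tested for each gene as the difference of the 2 differences. It passed for 1289 genes (23.7%), 671 (12.3%) positive and 618 (11.3%) negative, and for 1962 without wild-type array 1. Of the 26 Adr1-dependent genes, 20 had a positive and 1 a negative difference that passed (2 negative without wild-type array 1). Their change was thus mostly higher in the combined over the hdac mutant than in the bmh mutant over the wild type. The part of the other strain differences in this was not tested. In the bmh mutant 9 of them rose and 4 fell relative to the wild type, with a median of 0.10. Of all genes 14.8% rose and 17.2% fell there. ADH2 was at 10.25, 9.72 and 9.86 in the bmh mutant and 7.83, 7.03 and 7.31 in the wild type, a rise of 2.55 ± 0.17, and the rise in the combined mutant was larger by 2.17 ± 0.24, adjusted p = 4.8e-05. FDH1 rose by 0.37 ± 0.12 in the bmh mutant, a call that ended without combined array 1, bmh array 1 or 3, or wild-type array 2 or 3. Its rise in the combined mutant was larger by 3.28 ± 0.17, adjusted p = 9.5e-08. ACS1, at 8.55, 8.51 and 8.39 in the bmh mutant and 8.28, 8.44 and 8.46 in the wild type, was not called there (0.09 ± 0.066), and its difference between the comparisons passed (1.96 ± 0.093, adjusted p = 3.9e-08). ALD4 rose in both, by 1.80 ± 0.18 in the combined and 1.37 ± 0.18 in the bmh mutant, and the difference did not pass (0.43 ± 0.25, adjusted p = 0.25). CRC1, the carnitine carrier, was the member with a smaller rise in the combined mutant (−0.64 ± 0.11).

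Some genes moved in opposite directions. PXA1 rose by 1.15 in the combined over the hdac mutant and was at 6.20, 6.15 and 6.32 in the bmh mutant and 7.45, 7.26 and 7.38 in the wild type, a fall of 1.14. ATO3 rose by 1.25 and fell by 0.95 in the same 2 comparisons. HXT2 rose by 0.89 and fell by 0.82, MIG3 rose by 0.67 and fell by 0.90, and IME1 rose by 1.13 and fell by 0.98. For all 5 the difference between the comparisons passed. That adds little, because 2 calls in opposite directions almost ensure it. The strains did not start from the same level. HXT2 was at 13.28 in the combined mutant, 12.38 in the hdac mutant, 12.01 in the bmh mutant and 12.83 in the wild type.

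Some other responses of the bmh mutant were smaller, or for LEU1 reversed, in the combined over the hdac mutant. Iron uptake genes fell in the bmh mutant, 19 of 28 with 2 rising, and 14 of the 28 differed between the comparisons, all of them positive (1 negative without wild-type array 1). Over all genes, 14.8% rose and 17.2% fell in the bmh mutant, and 12.3% had a positive and 11.3% a negative difference. FET3, the multicopper oxidase of high-affinity iron uptake, measured 8.98, 9.39 and 9.28 in the combined mutant and 9.88, 9.58 and 9.37 in the hdac mutant, which overlap, against 8.73, 8.48 and 8.36 in the bmh mutant and 12.31, 11.74 and 11.60 in the wild type. The difference between the comparisons was 2.97 ± 0.26, adjusted p = 6.7e-06. FRE4, a ferric reductase gene, differed by 2.84 ± 0.15, adjusted p = 9.1e-08. PTR2 fell in both comparisons but by 3.97 in the bmh mutant, and the difference was 2.61 ± 0.22, adjusted p = 4.4e-06. LEU1, of leucine synthesis, rose by 0.40 in the combined mutant and fell by 2.17 in the bmh mutant (2.57 ± 0.1, adjusted p = 6.0e-09). Among phosphate genes, 14 of 22 fell in the bmh mutant, and SPL2 fell by 3.26 there against 1.12 in the combined mutant (2.14 ± 0.17, adjusted p = 2.6e-06).

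Of 50 Gcn4-driven genes, 25 rose and 10 fell in the bmh mutant, and 26 had a negative and 8 a positive difference between the comparisons. The shares of all genes, for this and the lists below, were 14.8% rising and 17.2% falling in the bmh mutant. For the difference they were 12.3% positive and 11.3% negative. ARG1, argininosuccinate synthetase, was at 12.49, 12.55 and 12.52 in the combined mutant and 12.28, 12.21 and 12.24 in the hdac mutant, against 12.62, 12.84 and 12.69 in the bmh mutant and 10.48, 10.12 and 10.29 in the wild type, so it was lowest in the wild type. Its difference between the comparisons was −2.14 ± 0.12, adjusted p = 1.5e-07. ADE17 (−2.33 ± 0.14, adjusted p = 3.1e-07), SNO1 (−2.32 ± 0.23, adjusted p = 1.6e-05), a gene of vitamin B6 synthesis, KDX1 (−2.21 ± 0.13, adjusted p = 1.5e-07), a gene of the cell integrity pathway, and PIR3 (−2.24 ± 0.27, adjusted p = 8.1e-05) had negative differences as well, and each was lowest in the wild type. PIR3, for example, averaged 12.30 in the combined mutant, 10.34 in the hdac mutant, 9.89 in the bmh mutant and 5.69 in the wild type. HIS4, CIT2 and CHA1 also had large negative differences, and all 3 lie on chromosome III. Mitochondrial ribosomal protein genes differed too: 21 of 68 rose and 0 fell in the bmh mutant, and 28 had a negative difference between the comparisons. In the respiratory chain, 17 of 38 rose and 1 fell in the bmh mutant, and 12 had a negative difference. The number rising was 11 without bmh array 1 or 3, 10 without wild-type array 2 or 3 and 30 without wild-type array 1, and 31 had a negative difference without wild-type array 1. In the bmh mutant 0 respiratory chain genes fell when any array but wild-type array 3 was left out, and 2 mitochondrial ribosomal protein genes fell without wild-type array 1.

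For several large responses the difference between the comparisons did not pass. NCE103 rose by 2.69 ± 0.15 in the combined and 2.85 ± 0.15 in the bmh mutant, and the difference between them was −0.15 ± 0.21, adjusted p = 0.64. PDH1, of propionate metabolism, rose by 2.22 ± 0.082 and 2.06 ± 0.082 (0.15 ± 0.12, adjusted p = 0.38), PYC1 by 1.69 ± 0.15 and 1.92 ± 0.15 (−0.23 ± 0.21, adjusted p = 0.48), and CPA1 by 1.56 ± 0.081 and 1.50 ± 0.081 (0.06 ± 0.12, adjusted p = 0.74). PHM6 fell by 2.37 in the combined mutant and fell by 2.13 in the bmh mutant (−0.23 ± 0.16, adjusted p = 0.32). BNA7 fell by 1.11 in the combined mutant and fell by 1.14 in the bmh mutant (0.03 ± 0.12, adjusted p = 0.9). Without wild-type array 1 the difference passed for NCE103 and PYC1. A difference that did not pass does not show that the responses were equal.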

How the data were processed

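The 12 samples were hybridised to Affymetrix Yeast 2.0 arrays, 1 colour, from 250 ng of RNA purified with hot acid phenol, per the labels' protocols. The authors deposited 1 log2 value per probe set and array; RMA and the affy package are named in the submitters' processing notes, without versions. The scale is log2 by its range (3.39 to 14.87) and was not changed. Of 5715 probe sets, 5497 had 1 gene symbol and 218 none. Where several read 1 gene, the one with the highest mean over all arrays was kept, which left 5448 genes, 100 read by probe sets of the _s_at kind and 18 of the _x_at kind, which can read near-identical genes.

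A limma 3.58.1 model (R 4.3.3) with 1 mean per strain was fitted to all 12 arrays (residual df 8), and p-values were adjusted by Benjamini-Hochberg over 5448 genes, with calls at 0.05. It was tested on simulated data. The comparisons were combined minus hdac, bmh minus wild type, and their difference. Groups follow the genotype labels. Background is the maximum among 18 signals measured for deleted genes (BMH2, HDA1, RPD3), which ran from 3.68 with a median of 3.82; folds against it are given as lower bounds. The number of arrays limits the precision.

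Chromosomes were taken from systematic names. The gene lists and the genes compared were chosen with earlier results of these data known. Genes named in the text were taken from 299 eligible ones: the mutated, marker and mating-type genes, the 15 largest rises and 15 largest falls without overlap, up to 4 called members of each list, every member of the 5 lists on glucose repression, and the 8 largest differences between the comparisons in each direction. Not every eligible gene is printed, and neighbours of the mutated and marker genes were named for their position. The 15 largest changes outside chromosome III were added after its shift was seen. Alternatives covered normalization, filters, model settings, probe sets, chromosome III and the omission of each array. No dates or batches were used. No promoter or protein sequence was used.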

Additional observations from a re-analysis of the deposited data

Results flagged for a closer look

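For 107 of the 173 genes that the naming rule gave and the report or the other observations print, the change in the combined over the hdac mutant differed from that in the bmh mutant over the wild type (limma's test of the difference of the differences, adjusted over all 5448 genes). It was positive for 73 and negative for 34, positive meaning higher in the combined over the hdac mutant than in the bmh mutant over the wild type. The naming rule took in the largest differences and the largest changes, so these counts are partly set by the choice of genes. Over all 5448 genes the difference passed for 23.7%, with 12.3% positive and 11.3% negative. All values here are log2 units, with 3 arrays in each strain. They carry the differences in mating type, chromosome III and markers described above, whose part in these values was not tested.

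Carbon genes were mostly positive. FDH1 differed by 3.28 (adjusted p = 9.5e-08), from 3.65 in the combined over the hdac mutant and 0.37 in the bmh mutant over the wild type. ACS1 differed by 1.96 (adjusted p = 3.9e-08), from 2.05 in the combined over the hdac mutant and 0.09 in the bmh mutant over the wild type. PXA1 differed by 2.29 (adjusted p = 8.9e-08), from 1.15 in the combined over the hdac mutant and −1.14 in the bmh mutant over the wild type. Other genes of ethanol, acetate and fatty acid use had positive differences: CTA1 2.44, ATO3 2.20, ADH2 2.17, RGI2 1.69, ADY2 1.21, ECI1 1.16, FOX2 0.86, POX1 0.78, SPS19 0.71, CAT2 0.69, POT1 0.63, GUT2 0.52 and GUT1 0.42. CRC1 differed by −0.64 (adjusted p = 0.0016), from 0.45 in the combined over the hdac mutant and 1.09 in the bmh mutant over the wild type.

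In glycolysis, gluconeogenesis and respiration, the differences were TDH1 1.08, CYB2 1.38, PCK1 0.87, JEN1 0.86, FBP1 0.63, ICL1 0.51, CAT8 0.47, SFC1 0.31 and SDH4 0.41 on the positive side and ENO1 −0.40, PYC2 −0.54, MDH2 −0.79 and CIT2 −2.67 on the negative side, CIT2 being on chromosome III. Sugar transport, use and repression gave, beside HXT2, HXT4 1.55, HXT7 1.07, HXT15 0.89, HXT9 0.56, MAL32 0.90, SUC2 0.55, HXK1 1.41, EMI2 0.72, MIG1 1.26 and MIG3 1.57. TUP1 on chromosome III was at −0.85. HXT2 differed by 1.71 (adjusted p = 3.3e-05), from 0.89 in the combined over the hdac mutant and −0.82 in the bmh mutant over the wild type.

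Stress, reserve carbohydrate and cell wall genes went both ways. SPG4 differed by 2.92 (adjusted p = 3.5e-06), from 4.18 in the combined over the hdac mutant and 1.26 in the bmh mutant over the wild type. PIR3 differed by −2.24 (adjusted p = 8.1e-05), from 1.97 in the combined over the hdac mutant and 4.21 in the bmh mutant over the wild type. Positive differences were found for TMA10 2.41, RTN2 2.04, NQM1 1.62, GPH1 1.34, HSP104 1.21, HSP42 0.88, PIG1 0.97, GLG1 0.74, RIM15 0.57, SPI1 0.95, PRM5 0.77, DAK2 2.81 and BAG7 1.17, and negative ones for YGP1 −1.35, YRO2 −1.63 and KDX1 −2.21. The meiotic and sporulation genes gave IME1 2.11, OSW2 1.78, SPR1 0.92, SPO21 0.85 and DMC1 0.59.

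Metal, phosphate, amino acid and nucleotide genes also went both ways. FET3 differed by 2.97 (adjusted p = 6.7e-06), from −0.39 in the combined over the hdac mutant and −3.36 in the bmh mutant over the wild type. LEU1 differed by 2.57 (adjusted p = 6e-09), from 0.40 in the combined over the hdac mutant and −2.17 in the bmh mutant over the wild type. ARG1 differed by −2.14 (adjusted p = 1.5e-07), from 0.28 in the combined over the hdac mutant and 2.42 in the bmh mutant over the wild type. ADE17 differed by −2.33 (adjusted p = 3.1e-07), from 0.69 in the combined over the hdac mutant and 3.02 in the bmh mutant over the wild type. The other positive differences were FRE4 2.84, PTR2 2.61, SPL2 2.14, PHO11 1.34, THI20 1.29, BNA2 0.86, URA10 0.64, URA1 0.28 and RPS14B 0.99. The other negative ones were SNO1 −2.32, MTD1 −0.94, IMD2 −1.72, BNA4 −0.86, RSB1 −0.55, AAD10 −0.72, COS8 −1.46 and COS2 −1.48.

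Genes of chromosome III, marker genes and mating-type genes also differed. On chromosome III the differences were HIS4 −2.64, CHA1 −2.16, GIT1 −2.08, ILV6 −1.25, IMG1 −1.20, IMG2 −1.16, MRPL32 −1.10 and THR4 −0.62. Of the marker genes they were LEU2 2.85, MET17 0.83, HIS3 −0.35, CAN1 −0.46, LYS2 −0.47 and ADE2 −0.71. Of the mating-type genes they were HMRA1 4.12, MFA2 5.63, STE2 5.00, BAR1 2.74, ASG7 1.81, SAG1 −0.55 and MF(ALPHA)1 −7.90. Without 1 array the test of the difference no longer passed for 9 of the genes above. For CAT8 that was bmh array 1, for GUT2 hdac array 3 or bmh array 3, and for HXT9 combined array 3, hdac array 2 or bmh array 1. For CAN1, ICL1, RSB1, SDH4, SFC1 and URA1 the test no longer passed without any 1 of 7 to 10 of the 12 arrays, controls included.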

How the results depend on the processing

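Of the 249 called genes among the 299 that could be named, 213 kept their call in every alternative run that included them. Of the rest, 36 lost it in at least 1, and none changed direction. Runs that filter genes by signal, probe set or chromosome leave some genes out, and those runs were not counted for them. In the combined against the hdac mutant, leaving out single arrays gave 1569 to 2766 called genes, 750 to 1311 higher, 801 to 1455 lower, 105 to 118 at least 2-fold higher and 70 to 80 at least 2-fold lower. The bmh against wild-type comparison gave 1319 to 2351 and the difference of the comparisons 1051 to 1962, the last without wild-type array 1. Weighting arrays by their spread, which gave that array a weight of 0.086, called 3213 genes (1529 higher, 1684 lower) and 2233 differences. At an adjusted p under 0.01, 1279 genes were called (630 higher, 649 lower), with 1076 in the bmh comparison and 738 differences. Fitting only its own 6 arrays, the bmh comparison called 1093, and no difference could be computed. Without the dimmest 20% of genes, 65 were at least 2-fold higher, and without chromosome III, an alternative chosen after seeing the data, 35 were at least 2-fold lower. Replicate numbers did not pair the arrays: the deviations of same-numbered combined and hdac arrays correlated at −0.134, 0.097 and −0.009, and those of bmh and wild-type arrays at −0.082, −0.1 and −0.052. With the replicate number as a block, 1863 genes were called (912 higher, 951 lower), with 1571 in the bmh comparison and 1174 differences. Signals near 4.13 cannot be told from background, which limits dim genes such as those of meiosis.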

Other observations

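Further gene groups were glycolysis, histones, the synthesis of NAD and thiamine, and the Ras and protein kinase A pathway. In glycolysis, 6 of 19 genes rose and 0 fell, with a median of 0.03 against −0.02 over all genes, and 1 fell without wild-type array 1 or 3. TDH1, a glyceraldehyde-3-phosphate dehydrogenase linked to slow growth and stress, measured 12.65, 12.81 and 12.76 in the combined mutant and 11.48, 11.36 and 11.64 in the hdac mutant (1.25 ± 0.16, adjusted p = 6.6e-05), without overlap. The other glycolytic rises were smaller, PYK2, a minor pyruvate kinase, by 0.51 ± 0.093 and ENO1, an enolase, by 0.28 ± 0.066. Of 10 histone genes, 4 rose and 1 fell. HTZ1, the histone H2A variant placed at promoters, was the one that fell, by 0.37, and HHT2, a histone H3 gene, rose by 0.30 ± 0.061.

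In the synthesis of NAD and thiamine, 13 of 31 genes rose and 5 fell, among them THI20, a thiamine synthesis kinase (0.97 ± 0.07). Of 19 genes of the Ras and protein kinase A pathway, 7 rose and 1 fell (median 0.13), with PDE1, a cyclic AMP phosphodiesterase, at 0.45 ± 0.13 (not called without combined array 2 or hdac array 2) and YAK1, a kinase that opposes growth, at 0.44 ± 0.067. RAS1 was the member that fell (−0.39 ± 0.11), and 0 fell without combined array 3 or hdac array 2. Over all genes, 17.5% rose and 18.9% fell.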
